A study of Rattus norvegicus with 12 samples.

Results

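The blood and neutrophil transcripts described here are 5 genes: Hbb, Alas2, Camp, S100a8 and S100a9. They were found on the arrays as every probe whose transcript accession maps to 1 of these symbols, which gave 6 probes, 2 for Hbb and 1 for each other gene, of 17328 probes that carry a symbol for 14629 genes. All 6 probes passed the filter on dim signals. RNA came from the striatum of male Wistar rats and was hybridised to 12 Agilent single-colour arrays, 3 in each of 4 groups; the age of the rats is not given in the sources used here. One group is lesioned striatum of rats given 2 drugs: L-DOPA, the precursor of dopamine, at 100 mg/kg, and 30 min later 50 mg/kg of zonisamide, an antiepileptic that is prescribed for Parkinson's disease too. The others are lesioned striatum of rats given the same dose of L-DOPA alone, lesioned striatum of saline rats, and non-lesioned striatum of saline rats. Injections were intraperitoneal, once a day for 7 days, and benserazide, a blocker of L-DOPA conversion outside the brain, preceded each L-DOPA dose.

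All groups share more than the drugs. Every rat had 6-hydroxydopamine, a toxin of dopamine neurons, injected into the left medial forebrain bundle, and every rat had received 3 mg/kg methamphetamine before treatment and had turned at least 7 times per minute. The non-lesioned striatum is therefore the other side of a lesioned brain, not the brain of an unlesioned rat, and no group received zonisamide without L-DOPA. The study's design assigns 3 animals to a group; whether the 2 saline groups are both sides of the same brains is not stated, and neither is whether the brains were perfused to clear blood.

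Hemoglobin is made by red cells and their precursors. Hbb encodes the adult beta chain of hemoglobin, and Alas2 encodes the erythroid form of 5-aminolevulinate synthase, the enzyme that starts heme synthesis in developing red cells. Camp encodes the cathelicidin precursor, an antimicrobial peptide stored in neutrophil granules. S100a8 and S100a9 encode the calcium-binding proteins that pair as calprotectin, which fills the neutrophil cytosol and acts on Toll-like receptor 4 and the receptor Ager. In brain such transcripts are known as signs of blood left in vessels or of blood cells that have entered the tissue, but beta-globin has also been described in neurons, and S100a8 and S100a9 in activated microglia. In RNA from bulk striatum, fewer cells of a type and less RNA per cell cannot be told apart.

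The promoters are shown because the genes belong to 2 programs, that of the red cell and that of the neutrophil. RefSeq's table for the rat build GRCr8 held 4 of the 5, 300 bases each, with 250 before and 50 after the start of the gene. They are Hbb at chr1:167663672-167663971 on the minus strand, Alas2 at chrX:22895200-22895499 on the plus strand, Camp at chr8:118721949-118722248 on the minus strand and S100a9 at chr2:178490573-178490872 on the minus strand. S100a8 is named only. Each sequence runs 5′ to 3′ along its gene's strand, and capitals mark matches to 5 short strings known from red cell and neutrophil genes, chosen with their matches in view and searched on both strands.
Hbb: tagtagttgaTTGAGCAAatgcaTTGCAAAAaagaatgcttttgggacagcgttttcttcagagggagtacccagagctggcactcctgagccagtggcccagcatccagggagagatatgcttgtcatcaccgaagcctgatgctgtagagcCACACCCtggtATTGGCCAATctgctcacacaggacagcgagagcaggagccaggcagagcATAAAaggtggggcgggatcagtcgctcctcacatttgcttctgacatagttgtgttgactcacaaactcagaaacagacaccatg
Alas2: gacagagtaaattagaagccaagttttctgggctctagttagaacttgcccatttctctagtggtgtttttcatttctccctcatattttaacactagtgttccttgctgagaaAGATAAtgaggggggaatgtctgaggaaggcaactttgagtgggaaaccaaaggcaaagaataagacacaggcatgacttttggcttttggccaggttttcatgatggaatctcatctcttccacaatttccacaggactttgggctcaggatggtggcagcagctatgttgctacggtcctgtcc
Camp: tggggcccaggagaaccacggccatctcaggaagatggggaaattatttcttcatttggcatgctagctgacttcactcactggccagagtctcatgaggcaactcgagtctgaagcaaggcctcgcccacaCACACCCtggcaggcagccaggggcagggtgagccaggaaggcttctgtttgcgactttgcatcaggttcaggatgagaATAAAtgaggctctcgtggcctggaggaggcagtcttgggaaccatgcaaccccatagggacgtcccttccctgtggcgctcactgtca
S100a9: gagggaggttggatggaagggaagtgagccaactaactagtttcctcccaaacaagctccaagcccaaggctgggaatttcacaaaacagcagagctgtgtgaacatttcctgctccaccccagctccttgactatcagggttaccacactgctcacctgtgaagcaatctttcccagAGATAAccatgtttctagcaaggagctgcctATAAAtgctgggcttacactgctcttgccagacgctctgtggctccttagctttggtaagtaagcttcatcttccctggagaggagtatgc

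The strings were AGATAA, which GATA factors bind, CACACCC, the CACCC box of globin genes, CCAAT, the TATA-like string ATAAA, and TTGCNNAA, the core of C/EBP sites. Hbb held CACACCC at -97 from the gene's start, CCAAT at -81 and its reverse complement at -86, ATAAA at -36, and the C/EBP core at -240 and -227; no 2 of these overlap. Alas2 held AGATAA at -136, Camp held CACACCC at -118 and ATAAA at -39, and S100a9 held AGATAA at -72 and ATAAA at -41. Among 33469 promoters of the same length AGATAA was found in 11.6%, CACACCC in 7.08%, CCAAT in 37.5%, ATAAA in 42.5% and TTGCNNAA in 10.6%. A match is a description of letters and no evidence of binding.

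Signals are given as log2 intensity minus each array's 75th percentile, and levels are compared between arrays, never between probes. The 75th percentile was between 793 and 1737 intensity units, and 67.6% to 74.0% of probes were well above background. The spread between replicate spots of 1 probe, from the file headers, was between 3.74% and 27.8%; it was over 20% on 5 arrays, namely replicate 3 of both drug groups and all 3 non-lesioned arrays. All 12 of the striatal spiny neuron genes sought, the dopamine receptors Drd1 and Drd2 among them, were well above background on all 12 arrays. The arrays lay on 5 slides: slide 1 held replicate 1 of every group, slide 2 replicate 2 of the 3 lesioned groups, and slide 3 the third array of each drug group beside replicate 2 of non-lesioned striatum, while replicate 3 of each saline group lay alone.

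Hbb was detected on every array through both of its probes. The probe with the higher mean signal, which stands for the gene below, read 3.85, 4.19 and 2.74 with L-DOPA and zonisamide, 4.19, 5.07 and 5.08 with L-DOPA, 4.59, 4.25 and 4.52 in lesioned saline striatum, and 4.32, 4.70 and 4.10 in non-lesioned striatum. The 2 highest arrays were replicates 2 and 3 of L-DOPA, and all 3 zonisamide arrays lay under all 6 saline arrays except that replicate 2, at 4.19, exceeded replicate 3 of the non-lesioned side, at 4.10. The other probe read -0.78, -0.37 and -1.09 with L-DOPA and zonisamide, -0.02, 0.95 and 0.19 with L-DOPA, 0.03, 0.02 and -0.22 in lesioned saline striatum, and 0.11, -0.22 and -0.69 in non-lesioned striatum. It too had its lowest array in replicate 3 of the zonisamide group and its highest in an L-DOPA array, and the probes correlated at r = 0.83 over the 12 arrays, which they share. Hbb lies in a cluster of near-identical beta-globin genes, and how far either probe also binds transcripts of its neighbours was not tested.

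Alas2 was also detected on every array. It read -2.83, -2.46 and -1.76 with L-DOPA and zonisamide, -2.34, -1.48 and -1.29 with L-DOPA, -2.13, -2.26 and -2.69 in lesioned saline striatum, and -2.62, -1.98 and -2.28 in non-lesioned striatum. Replicates 2 and 3 of L-DOPA were again the 2 highest arrays, but the third was replicate 3 of the zonisamide group, the array on which Hbb was lowest.

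Camp, the cathelicidin, was detected on every array. It read -4.46, -4.62 and -5.73 with L-DOPA and zonisamide, -4.25, -3.46 and -3.27 with L-DOPA, -4.52, -5.05 and -3.96 in lesioned saline striatum, and -5.10, -4.47 and -5.38 in non-lesioned striatum. As for Hbb, the 2 highest arrays were replicates 2 and 3 of L-DOPA and the lowest was replicate 3 of L-DOPA with zonisamide.

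S100a8 was well above background on 11 arrays and not on replicate 2 of lesioned saline. It read -6.84, -6.79 and -4.95 with L-DOPA and zonisamide, -5.87, -5.23 and -4.93 with L-DOPA, -5.61, -7.16 and -6.31 in lesioned saline striatum, and -5.19, -5.69 and -5.54 in non-lesioned striatum. Its zonisamide arrays spanned nearly the whole range of the 12, with replicate 3 next to the highest L-DOPA array and the other two among the 3 lowest.

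S100a9, the partner of S100a8, was well above background on every array by at least 1 of its 2 spots, but by 1 spot only on all 3 zonisamide arrays and on 4 others, so its lower values are partly at background. It read -6.20, -6.91 and -5.17 with L-DOPA and zonisamide, -4.68, -4.70 and -5.25 with L-DOPA, -5.43, -6.03 and -5.14 in lesioned saline striatum, and -4.77, -5.89 and -5.93 in non-lesioned striatum. Replicates 1 and 2 of zonisamide were the 2 lowest arrays, while replicate 3 lay among the L-DOPA arrays.

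**Figure D1:**
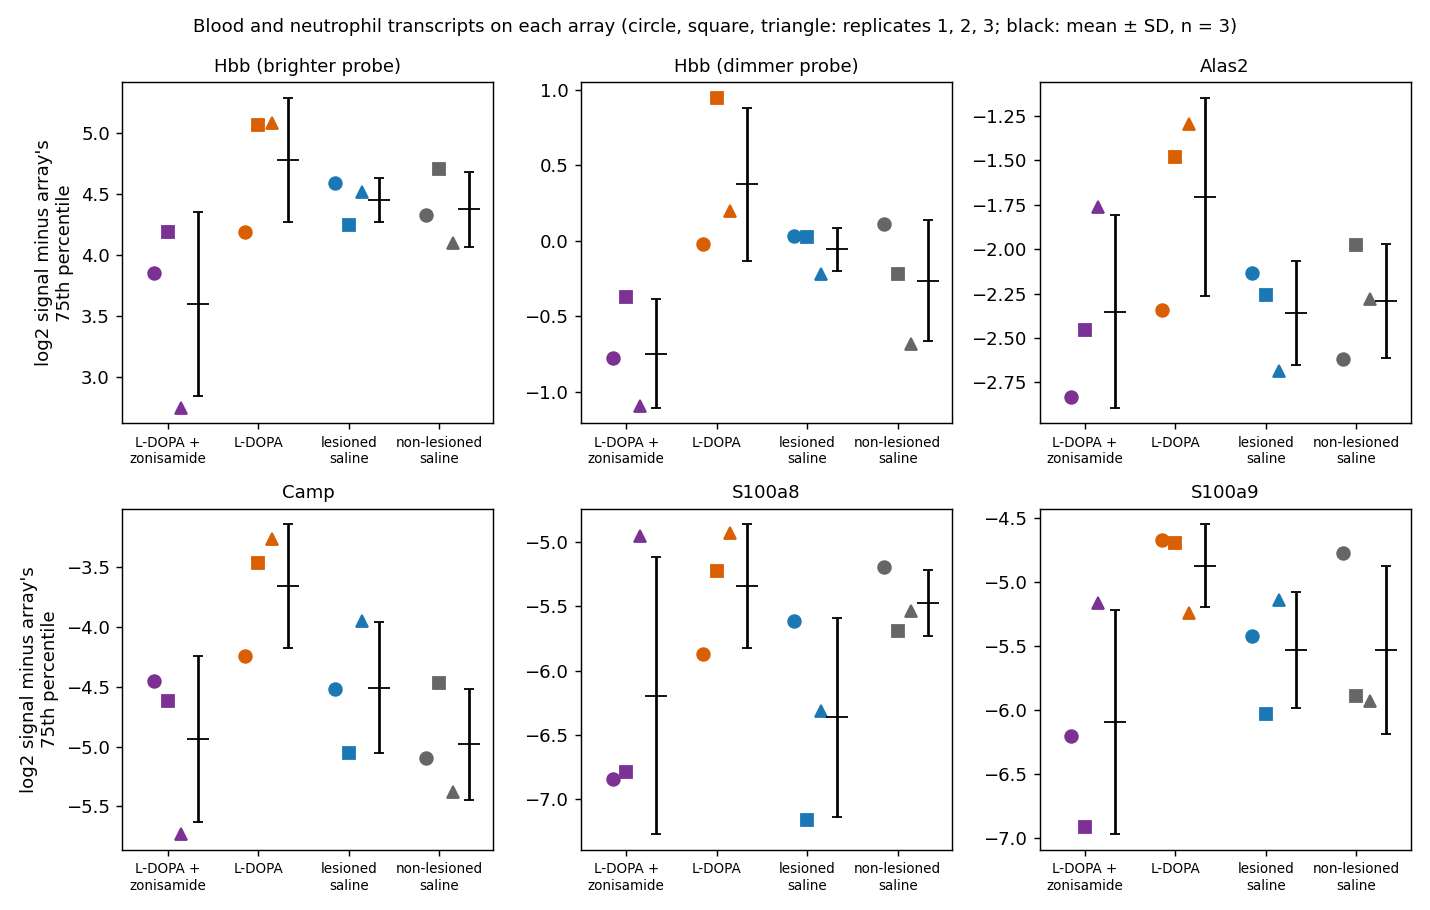
Log2 signal minus the array's 75th percentile (vertical axes, a separate scale per probe) for the 6 probes in the 4 groups, with 1 symbol per array (circle, square and triangle for replicates 1, 2 and 3) and the group mean ± SD in black (n = 3). Replicates 2 and 3 of L-DOPA are the highest arrays for Hbb (brighter probe), Alas2 and Camp, and the L-DOPA group has the highest mean in every panel.

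The L-DOPA group had the highest mean for all 5 genes. Hbb averaged 3.60 ± 0.76 with L-DOPA and zonisamide, 4.78 ± 0.51 with L-DOPA, 4.45 ± 0.18 in lesioned saline striatum and 4.37 ± 0.31 in non-lesioned striatum (SD, n = 3 each), and the 1 gap between neighbours in the order of these means that exceeded the SDs on both of its sides lay between the zonisamide and the non-lesioned group. Alas2 averaged -2.35 ± 0.54 with L-DOPA and zonisamide, -1.71 ± 0.56 with L-DOPA, -2.36 ± 0.29 in lesioned saline striatum and -2.29 ± 0.32 in non-lesioned striatum, and the 3 groups below L-DOPA lay closer together than any SD. Camp averaged -4.94 ± 0.69 with L-DOPA and zonisamide, -3.66 ± 0.52 with L-DOPA, -4.51 ± 0.55 in lesioned saline striatum and -4.98 ± 0.46 in non-lesioned striatum, and only the gap below L-DOPA exceeded the SDs on both of its sides.

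The S100 genes were ordered differently below the L-DOPA group. S100a8 averaged -6.20 ± 1.08 with L-DOPA and zonisamide, -5.34 ± 0.48 with L-DOPA, -6.36 ± 0.77 in lesioned saline striatum and -5.47 ± 0.26 in non-lesioned striatum, with no gap between neighbours wider than the SDs on both of its sides. S100a9 averaged -6.10 ± 0.88 with L-DOPA and zonisamide, -4.87 ± 0.32 with L-DOPA, -5.53 ± 0.45 in lesioned saline striatum and -5.53 ± 0.66 in non-lesioned striatum, and the gap below L-DOPA was about as wide as the larger SD beside it. Within groups these transcripts varied more than most: the pooled SD was 0.49 for Hbb, 0.45 for Alas2, 0.56 for Camp, 0.72 for S100a8 and 0.61 for S100a9, against a median of 0.34 over the 19412 features tested.

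Zonisamide added to L-DOPA is the contrast named in the title of the study. All 5 genes had a lower mean with L-DOPA and zonisamide than with L-DOPA, with a median log2 change of -1.18, against -0.03 over all features. Hbb had 2.27-fold and Camp 2.42-fold less signal, and Hbb and Camp were lower on each zonisamide array than on any L-DOPA array, Hbb by the narrowest of margins, 4.188 on zonisamide replicate 2 against 4.189 on L-DOPA replicate 1. With limma, 0 of the 5 passed an adjusted p under 0.05, a threshold that 93 features, 0.479%, passed (13 with the replicate number as a block); 3 of the 5 (Hbb, Camp and S100a9) had an unadjusted p under 0.05, which 12.4% of all features had. Groups that did not overlap, with zonisamide lower, were found in 2 of the 5 and in 10.5% of all features (17.3% in either direction).

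The log2 changes and their standard errors were -1.18 ± 0.37 for Hbb (limma, adjusted p = 0.220, 95% interval -2.01 to -0.36), -1.28 ± 0.42 for Camp (adjusted p = 0.244, -2.21 to -0.34) and -1.22 ± 0.46 for S100a9 (adjusted p = 0.306, -2.24 to -0.20). Alas2 had -0.64 ± 0.34 (adjusted p = 0.491, -1.40 to 0.11) and S100a8 -0.85 ± 0.53 (adjusted p = 0.575, -2.03 to 0.33). The intervals are not adjusted for the number of features. The other Hbb probe gave -1.12 ± 0.29 (limma, adjusted p = 0.138).

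Equal replicate numbers shared a slide in the zonisamide comparison, so each slide gives 1 difference. On slides 1, 2 and 3 it was -0.34, -0.88 and -2.33 for Hbb, and -0.21, -1.16 and -2.46 for Camp. S100a8 gave -0.97, -1.56 and -0.02 on the same slides, and S100a9 gave -1.53, -2.22 and 0.08. Alas2 gave -0.49, -0.97 and -0.47. Camp, and Hbb through its brighter probe, thus differed most on slide 3, where the S100 genes differed least. The other Hbb probe gave -0.76, -1.32 and -1.29 on slides 1, 2 and 3, so it did not differ most on slide 3. Without replicate 3 of the zonisamide group the change was -0.76 for Hbb and -0.88 for Camp but -1.47 for S100a8 and -1.69 for S100a9. With normexp background correction and quantile normalization it was -0.59 for Camp, -0.10 for S100a8 and -0.29 for S100a9.

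L-DOPA against saline on the lesioned side asks how daily dopamine replacement shows in the denervated side. The 5 genes each had a higher mean after L-DOPA, with a median change of 0.66 against -0.03 over all features. In limma 0 of 5 passed (84 features, 0.433%, did), 0 of 5 had an unadjusted p under 0.05 (11.3% of features did), and in 0 of 5 were the groups free of overlap (22.4% of features were). S100a8 had a change of 1.02 ± 0.53 (adjusted p = 0.518, limma, 95% interval -0.16 to 2.20) and Camp one of 0.85 ± 0.42 (adjusted p = 0.493, -0.09 to 1.78). S100a9 had 0.66 ± 0.46 (-0.36 to 1.68), Alas2 0.65 ± 0.34 (-0.11 to 1.41) and Hbb 0.33 ± 0.37 (-0.50 to 1.15). The order of these changes is not firm: without replicate 2 of lesioned saline, where S100a8 was not above background, S100a8 had 0.62 and Alas2 0.70, and with normexp background correction S100a8 had 0.29, the smallest of the 5. Leaving out single arrays gave 0.18 to 0.62 for Hbb.

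The 2 slides that held both of these groups differed. On slide 1 the L-DOPA minus saline difference was -0.40 for Hbb, -0.21 for Alas2, 0.27 for Camp, -0.26 for S100a8 and 0.75 for S100a9. On slide 2 it was 0.82 for Hbb, 0.77 for Alas2, 1.59 for Camp, 1.93 for S100a8 and 1.33 for S100a9. Hence 3 of the 5 pointed down on slide 1 and all pointed up on slide 2. The L-DOPA and zonisamide comparisons share the 3 L-DOPA arrays, so a high L-DOPA array moves the first up and the second down.

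The lesion was tested as lesioned against non-lesioned striatum after saline. Hbb had a change of 0.08 ± 0.37 (95% interval -0.75 to 0.90), Alas2 -0.07 ± 0.34 (-0.82 to 0.69), Camp 0.48 ± 0.42 (-0.46 to 1.41), S100a8 -0.89 ± 0.53 (-2.07 to 0.29) and S100a9 -0.00 ± 0.46 (-1.02 to 1.02). In limma 0 of 5 passed, as did 0% of all features; 0 of 5 had an unadjusted p under 0.05 (8.48% of features did), and in 0 of 5 were the groups free of overlap (17% of features were). The median of the 5 was -0.00 against 0.05 over all features.

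L-DOPA with zonisamide was last set against lesioned saline. Hbb had a change of -0.86 ± 0.37 (limma, adjusted p = 0.670, 95% interval -1.68 to -0.03), and its groups did not overlap through either probe. Without zonisamide replicate 3, the array with discordant Hbb spots, the change was -0.43. The gene without overlap was 1 of the 5 genes; over all features groups without overlap and lower with both drugs made up 11.6% (18.1% in either direction). Alas2 had 0.01 ± 0.34, Camp -0.43 ± 0.42, S100a8 0.17 ± 0.53 and S100a9 -0.56 ± 0.46, and 0 of 5 passed in limma, as did 0% of features. Hbb was the 1 gene with an unadjusted p under 0.05, which 7.34% of features had.

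**Figure D2:**
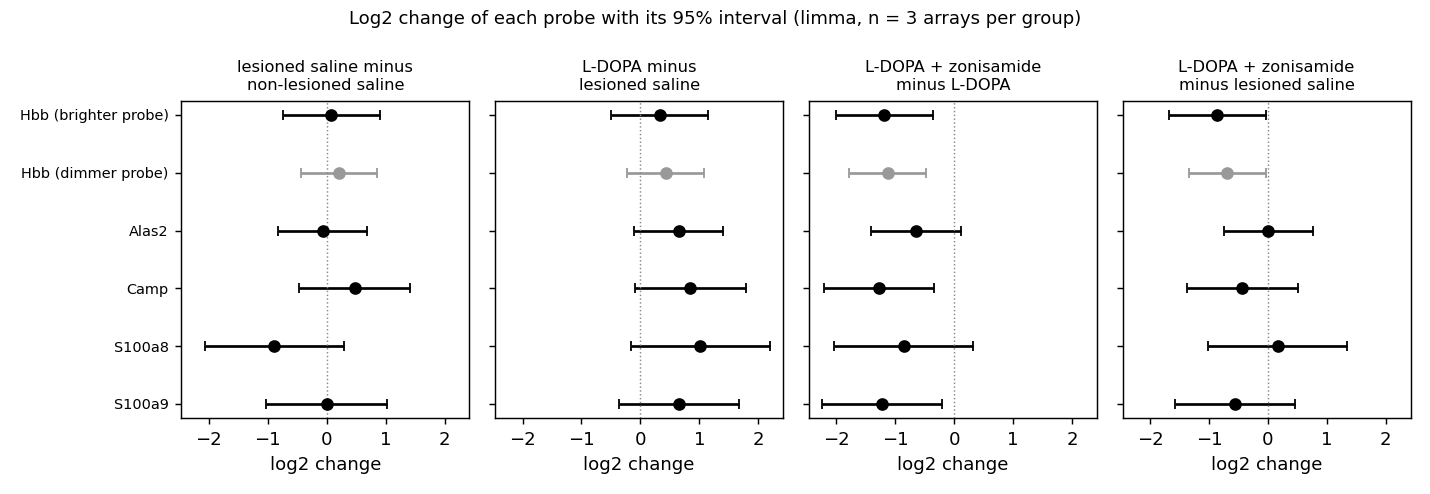
Log2 change (horizontal axis) of each probe in the 4 comparisons, points with 95% intervals from limma (n = 3 arrays per group, not adjusted for multiple tests); the further Hbb probe is grey. With zonisamide added to L-DOPA all points lie below 0, from -1.28 for Camp to -0.64 for Alas2, and with L-DOPA against saline all lie above 0.

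Each probe was printed as 2 spots, which show how firm the single values are. Hbb on replicate 3 of the zonisamide group, its lowest value, is the mean of spots at 1.76 and 3.73, a gap of 1.97 where the median gap of all probes on that array was 0.38. The other Hbb probe had spots at -2.12 and -0.07 on the same array. S100a8 on replicate 1 of the zonisamide group had spots at -7.92 and -5.77, and Alas2 on replicate 1 of the non-lesioned side had -1.92 and -3.32. Camp had no gap over 1.02 on any array. The same one of the S100a9 spots was brighter on all 12 arrays, by a median of 1.20 and at most 2.62, on zonisamide replicate 2, where the dimmer spot read -8.22 and the lowest signal marked well above background was -7.18.

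Taking the brighter spot of each probe, an alternative added after the data were seen, gave zonisamide changes of -0.87 for Hbb, -1.20 for Camp, -0.57 for S100a8 and -0.96 for S100a9, and still 0 of 5 genes passed in limma.

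**Figure D3:**
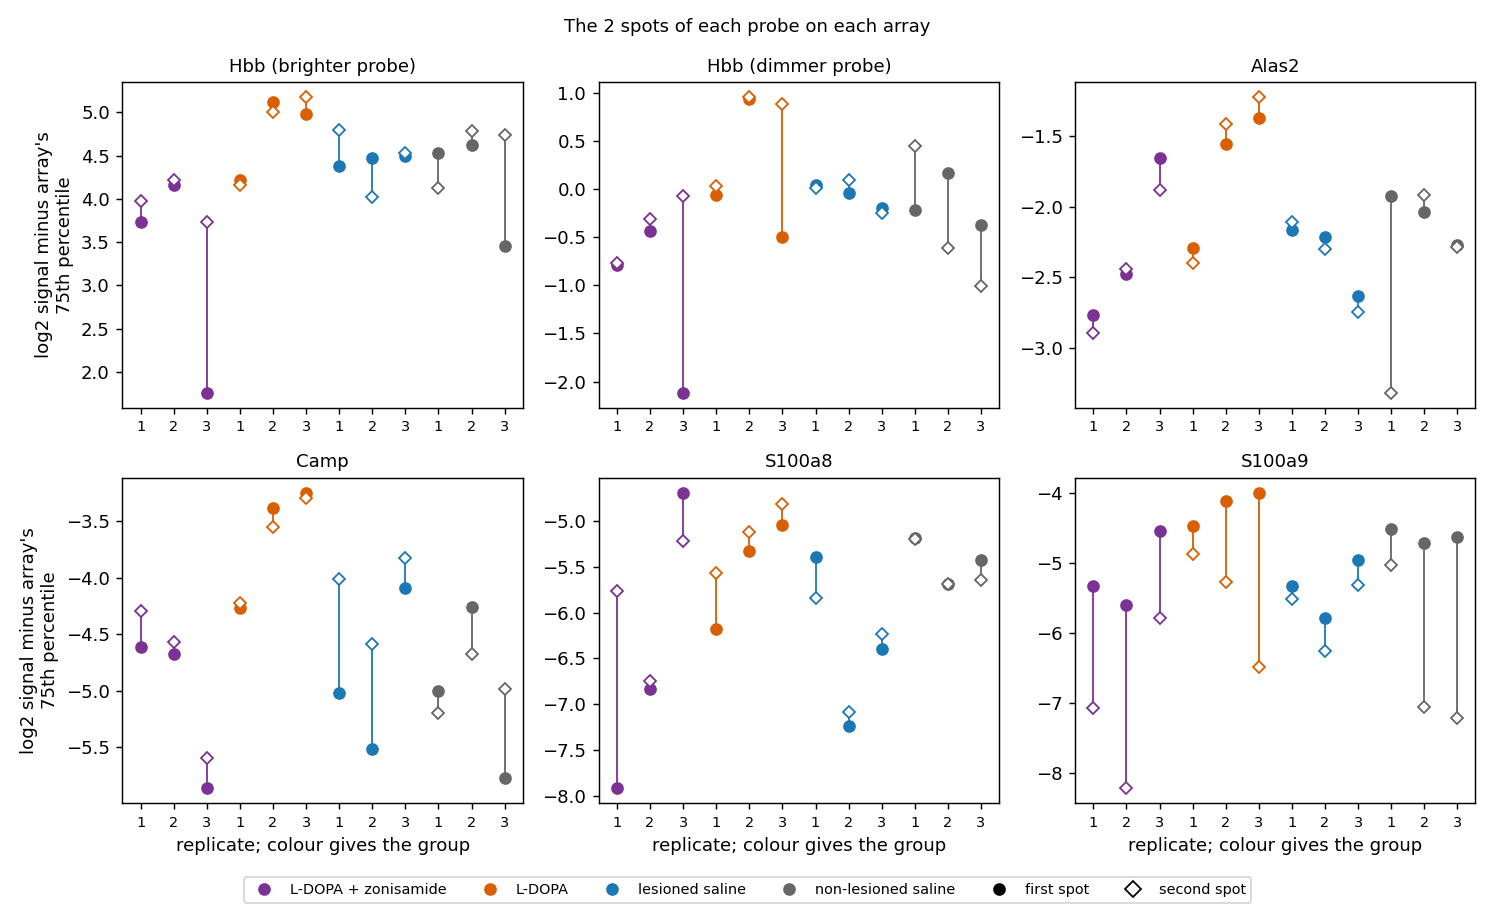
Log2 signal minus the array's 75th percentile of the first spot (filled circle) and second spot (open diamond) of each probe on each of the 12 arrays, joined by a line and coloured by group. The Hbb spots of zonisamide replicate 3 lie at 1.76 and 3.73, and the first S100a9 spot is the brighter on all 12 arrays.

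Across the 12 arrays the 5 genes form 10 pairs. The permutations moved values freely over the 12 arrays, across groups and slides. Their p therefore treats the arrays as exchangeable and does not measure how genes vary together within groups. Hbb and Camp, a red cell and a neutrophil transcript, had the highest correlation, with Pearson's r = 0.80 (permutation p = 0.00119, adjusted over the 10 pairs 0.0119) and Spearman's rho = 0.66 (permutation p = 0.0220, adjusted 0.182). Without replicate 3 of L-DOPA and replicate 3 of L-DOPA with zonisamide, the arrays farthest from the median of Hbb, r was 0.62, and with group means removed it was 0.88. S100a8 and S100a9 followed with r = 0.66 (permutation p = 0.0186, adjusted 0.0791) and rho = 0.52 (permutation p = 0.0895, adjusted 0.275), and r was 0.59 without its 2 farthest arrays. Alas2 and S100a8 had r = 0.65 (permutation p = 0.0237, adjusted 0.0791) and rho = 0.62 (permutation p = 0.0365, adjusted 0.182), with r = 0.51 without 2 arrays.

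Hbb and Alas2, the 2 red cell genes, had r = 0.28 (permutation p = 0.375, adjusted 0.572) and rho = 0.49 (permutation p = 0.110, adjusted 0.275). Without replicate 3 of both drug groups their r was 0.80, and with group means removed it was -0.011, so the value depends on which arrays and groups enter. On the third L-DOPA array both genes were at their highest, while on the third zonisamide array Hbb was lowest and Alas2 was above all 6 saline arrays. The other 6 pairs had r between 0.08 and 0.36. No slide held 6 arrays, so no correlation within slides is given.

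The genes most like each of the 5 were sought among 10222 features with a symbol that were well above background on all 12 arrays. Hbb was followed most closely by H1f4, a linker histone (r = 0.97), Renbp, the renin-binding protein (0.95), and F11r, a junctional adhesion molecule (0.94). Like Hbb, each of them was lowest on zonisamide replicate 3, at -1.90, -5.47 and -5.05. That array had the widest spread between replicate spots (27.8%), and r without it was not computed. The other globins came later: the alpha-globin Hba-a1 stood at place 88 (r = 0.82), Hbb-b1 at place 1221 (0.47) and Hbb-bs at place 2708 (0.26). Hbb-b1 read 4.46 on zonisamide replicate 3, against 5.14 on L-DOPA replicate 3, and Hbb-bs read 2.91 against 2.86, while Hbb had 2.74 against 5.08 on that same pair of arrays. A further Hbb-b1 probe read 2.07 against 4.81 there, with its 2 spots 3.08 apart on the zonisamide array.

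Alas2 was followed most closely by Vsig8 (r = 0.95), Rnf217 (0.91) and Gbp5 (0.91). Camp was followed by the Toll-like receptor Tlr2 (0.93), the sterol synthesis enzyme Hmgcs1 (0.93) and the vitamin D receptor Vdr (0.92). For S100a8 these were Fstl1 (0.91), Cdc42ep1 (0.85) and the RNA-binding protein Elavl1 (0.84), and for S100a9 the matrix link protein Hapln2 (0.92), Spsb1 (0.88) and the phospholipase Plcb2 (0.88). The values of r are over 12 arrays that share their scaling and are descriptions.

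Further red cell genes were examined through a list of which 20 genes were on the array and 14, Hbb and Alas2 included, were tested. Of the 20, 11 were well above background on all 12 arrays, and Gata1, the master regulator of red cell development, Hbe1, Epb42 and Rhag on none. With zonisamide added 0 of 14 passed in limma, 12 had a lower mean (53.8% of all features did) and 4 had an unadjusted p under 0.05 (12.4% of all features did), with a median change of -0.35 against -0.03 over all features. The 4 were Hba-a1, at 4.88, 5.30 and 5.04 with L-DOPA and zonisamide against 5.51, 5.96 and 6.27 with L-DOPA (change -0.84 ± 0.20, adjusted p = 0.102), Hbb-b1 (-0.89 ± 0.28), Hbb and the erythropoietin receptor Epor (-0.59 ± 0.20). Through the probe given, Hba-a1 did not overlap between these groups, and neither did 10.5% of all features in this direction. The 2 spots of that probe lay 1.03 apart on zonisamide replicate 3. A further Hba-a1 probe did overlap, at 1.04 on zonisamide replicate 3 against 0.96 on L-DOPA replicate 1. With L-DOPA against saline 0 of 14 passed and the median was 0.31, and Epor came closest (0.94 ± 0.20, limma, adjusted p = 0.0902). Medians were 0.04 for the lesion and -0.17 for both drugs, again with 0 of 14 passing. Among the 14 is the alpha-globin Hba-a3, well above background on 8 arrays, which passed the filter on dim signals through the drug groups only. It read -2.52, -3.05 and -1.94 with L-DOPA and -4.25, -7.28 and -7.27 in lesioned saline striatum. Over the 11 genes well above background on all 12 arrays, the medians were 0.33 for L-DOPA, -0.07 for the lesion and -0.21 for both drugs.

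Of the 24 neutrophil granule genes on the array 10 were tested, Camp, S100a8 and S100a9 among them. Only 8 of the 24 were well above background on all 12 arrays, and 10 were on none, including the granule proteases Elane and Ctsg, lactoferrin (Ltf), Ngp, Mmp8 and alpha-defensins such as Defa5. The neutrophil chemokine receptors Cxcr1 and Cxcr2 were well above background on no array, nor was the regulator Gfi1. The ficolin Fcnb was well above background on 3 arrays only and passed the filter on dim signals through the L-DOPA group, where it had to be high, so it is left out of the counts below, a choice made after its values were seen. With zonisamide added the other genes of the granule list had 0 of 9 passing in limma, 7 lower (53.8% of all features were) and 5 with an unadjusted p under 0.05 (12.4% of all features had one), with a median of -0.52 against -0.03 over all features. The 5 are counted in either direction. Prtn3 and Pglyrp1 were the 2 that were higher. Prtn3, a granule protease well above background on all 12 arrays, read -3.52, -3.56 and -3.10 with L-DOPA and zonisamide. With L-DOPA it read -3.85, -4.31 and -3.82. With L-DOPA against saline 0 of 9 passed and the median was 0.34, and medians were 0.07 for the lesion and -0.16 for both drugs with none passing.

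Lcn2, the granule protein lipocalin that astrocytes also make, had the widest differences of this list. It read -4.84, -5.16 and -3.46 with L-DOPA and zonisamide, -2.92, -1.55 and -1.84 with L-DOPA, -5.24, -5.39 and -4.52 in lesioned saline striatum, and -5.46, -4.43 and -3.77 in non-lesioned striatum. The 3 L-DOPA arrays were above all 9 others, and the changes were 2.95 ± 0.56 for L-DOPA (limma, adjusted p = 0.0619) and -2.38 ± 0.56 for zonisamide (adjusted p = 0.102). Over all features, the groups did not overlap in 22.4% for L-DOPA and in 17.3% for zonisamide. The share of features that separate from all 9 others was not counted.

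**Figure D4:**
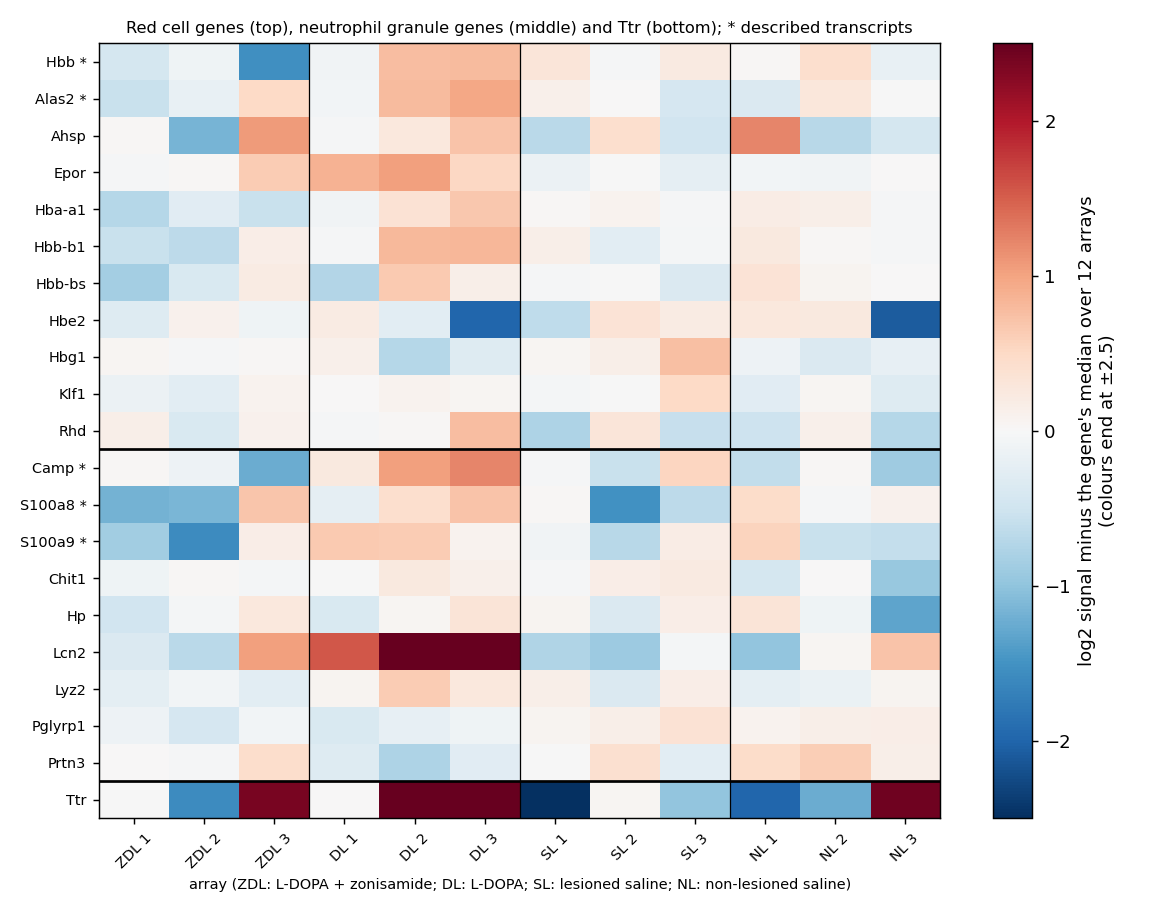
Log2 signal minus each gene's own median over the 12 arrays (colour, ending at ±2.5) for the 11 red cell genes (top) and 9 neutrophil granule genes (middle) shown, and Ttr (bottom), with arrays in columns by group. Hbb and Camp are at their lowest on ZDL 3, where Alas2, Hbb-bs and S100a8 are above their own medians.

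The related lists had no gene passing in limma for any comparison. They were heme synthesis (14 tested), clearance of heme and hemoglobin (11), neutrophil surface proteins and regulators (5), partners of S100a8, S100a9 and cathelicidin (15), the S100 family (11) and platelet genes (4). The median of the heme synthesis list was 0.05 with zonisamide and -0.09 with L-DOPA, and Alas1, the form of the enzyme made in all tissues, had -0.14 ± 0.19 and 0.37 ± 0.19. The oxygenase Hmox1, which breaks down heme, had -0.02 ± 0.18 with zonisamide and 0.02 ± 0.18 with L-DOPA. Of the S100 family, S100a8 and S100a9 included, 10 of 11 had a lower mean with zonisamide (53.8% of all features did). The median of the family was -0.56 against -0.03 over all features, and S100a4 came closest to passing (-1.33 ± 0.29, limma, adjusted p = 0.0849). Tlr4, a receptor of calprotectin, had -0.15 ± 0.24.

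In the remaining lists the genes of smallest p with zonisamide pointed in both directions, none passing in limma. Among neutrophil surface genes (median -0.30) the integrin chains Itgb2 and Itgam, which microglia share, had -0.83 ± 0.22 and -2.10 ± 0.68, and the decoy receptor Il1r2 had 1.03 ± 0.31. Il1r2 was well above background on 11 arrays, and read -6.91 and -7.03 on L-DOPA replicates 2 and 3. The lowest signals marked well above background on those arrays were -6.73 and -6.58, so its L-DOPA values lay near background. Among the partners of S100a8, S100a9 and cathelicidin (median -0.07) the transcription factors Cebpd and Cebpb had -0.80 ± 0.23 and 0.67 ± 0.23. The platelet list had a median of -0.63 and the clearance list one of -0.04, with Pf4, a platelet chemokine, at -1.29 ± 0.38 and Cd163, the macrophage receptor that takes up hemoglobin, at 0.85 ± 0.28.

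Markers of other cells are set beside these values. Microglia, which can express S100a8 and S100a9, had 11 of 11 markers well above background on all 12 arrays, and their mean level was -0.21 to -0.02 with L-DOPA and zonisamide, 0.14 to 0.42 with L-DOPA, 0.29 to 0.52 in lesioned saline striatum and -0.32 to 0.37 in non-lesioned striatum. With zonisamide added 8 of these markers were lower (53.8% of all features were) and 3 higher. Tmem119, 1 of the 3, read -0.86, -0.71 and -0.54 against -1.51, -1.02 and -1.48 with L-DOPA. Itgam, also on the neutrophil surface list, was lower, at -3.94, -3.76 and -4.05 against -2.42, -1.46 and -1.59. The microglial mean without Itgam was not computed. Endothelial markers, a gauge of vessels, were well above background on all 12 arrays in 11 of 14, with a mean of -2.25 to -1.89 with L-DOPA and zonisamide, -1.67 to -1.41 with L-DOPA, -1.82 to -1.52 in lesioned saline striatum and -2.26 to -1.86 in non-lesioned striatum. The 6 tested granule genes other than Camp, S100a8, S100a9 and Fcnb had a mean of -3.09 to -2.65 with L-DOPA and zonisamide, -2.78 to -2.38 with L-DOPA, -3.02 to -2.77 in lesioned saline striatum and -3.07 to -2.78 in non-lesioned striatum. Lcn2, which had the widest differences of the granule list, is among the 6, and the mean without it was not computed. Neither the microglial nor the endothelial mean overlapped between the 2 drug groups, and both were lower with zonisamide, while the granule mean overlapped. With Fcnb, which passed the filter through the L-DOPA group, the granule mean did not overlap either. It was then -3.79 to -3.35 with L-DOPA and zonisamide and -3.31 to -2.90 with L-DOPA. Monocyte and perivascular macrophage genes, Pf4 and Cd163 among them, had a mean of -4.54 to -4.02 with L-DOPA and zonisamide and -3.89 to -3.64 with L-DOPA. Of the 7 tested, 5 were lower with zonisamide (53.8% of all features were) and 2 higher, with a median of -0.43. In limma 0 passed, and 5 had an unadjusted p under 0.05 in either direction (12.4% of all features had one). Of single features, 10.5% did not overlap and were lower with zonisamide. The part of these cells in the values above was not tested.

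Ttr, the transcript by which choroid plexus tissue is gauged, read 4.28, 2.72 and 6.67 with L-DOPA and zonisamide, 4.31, 7.27 and 6.89 with L-DOPA, -0.74, 4.35 and 3.30 in lesioned saline striatum, and 2.32, 3.05 and 6.73 in non-lesioned striatum. It was highest on replicates 2 and 3 of L-DOPA, where Hbb, Alas2 and Camp were highest too, and high on zonisamide replicate 3, where Hbb and Camp were lowest. Alas2 stood at place 3 of its arrays on that zonisamide array. With Ttr as a covariate the zonisamide change was -1.31 for Hbb, -1.39 for Camp, -0.53 for Alas2, -0.81 for S100a8 and -1.22 for S100a9. The L-DOPA change was then 0.63 for Hbb, 1.12 for Camp, 0.38 for Alas2, 0.92 for S100a8 and 0.65 for S100a9. The part of choroid plexus in these values was not tested further.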

How the data were processed

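Scanner files of 12 Agilent single-colour arrays came, per the file headers, from Agilent Feature Extraction (version 10.7.3.1) as the authors ran it. The deposited processed signal is an intensity with background subtracted and detrended within the array, and the authors' combined table equals that deposited intensity on all 62976 spots of each array. The median spot and background brightness, an intensity without subtraction per the file headers, served 1 alternative.

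Outlier spots were left out, the spots of a probe averaged, and each array's 75th percentile subtracted from log2 signals. A probe was tested if at least 0.5 of its spots were marked well above background on all 3 arrays of a group. Symbols came from RefSeq accessions (17328 probes matched 1, 13039 none), the probe with the highest mean stood for a gene, and 19412 features were tested with limma 3.58.1 in R 4.3.3 on all 12 arrays and 4 groups, two-sided, with Benjamini-Hochberg adjustment over all features. The code was tested on simulated data, where changes as small as those of the 5 genes mostly went uncalled, so a gene that did not pass may still differ. Between groups of 3 arrays the smallest exact permutation p is 0.1, and the number of arrays limits precision. Correlations used 100000 permutations.

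The 5 genes, the lists and the strings sought in promoters were chosen with earlier results of these data known. Named genes are the 5 by every probe, the 2 to 4 members of a list with the smallest p, the 3 genes most like each, and Ttr. Genes named for lack of signal, Alas1, Hmox1, Tlr4, Prtn3, Pglyrp1, Tmem119 and the other globins were chosen after their values were seen. Between the drug groups, every pair of equal replicate numbers shared a slide, and deviations of same-numbered arrays correlated at 0.37, 0.19 and 0.25. In the other comparisons only some equal numbers shared a slide, and these correlations lay between -0.18 and 0.20. The highest of them, for replicate 1 of L-DOPA and lesioned saline, was as high as the lowest between the drug groups. The numbers were taken to pair the arrays between the drug groups only. Alternatives were quantile normalization, normexp (offset 50), other filters on dim probes, the mean of a gene's probes, the 2 groups alone, the replicate block, slide as a block, Ttr as a covariate, leaving out arrays, and, added after the data were seen, the brighter spot, the other Hbb probe and the lists without dim genes.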

Additional observations from a re-analysis of the deposited data

How the results depend on the processing

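No gene of the 5 passed in any comparison under any alternative; over 355 values of their 20 log2 changes the lowest adjusted p was 0.104 with limma (Hbb with zonisamide, without L-DOPA replicate 1). The direction of every L-DOPA and zonisamide change of the 5 was the same under all alternatives run, with zonisamide changes between -1.48 and -0.61 for Hbb, -1.57 and -0.59 for Camp and -1.87 and -0.29 for S100a9, and L-DOPA changes between 0.18 and 0.63 for Hbb, 0.26 and 0.97 for Alas2, 0.52 and 1.14 for Camp, 0.29 and 1.39 for S100a8 and 0.33 and 1.16 for S100a9. The direction turned in 26 values, all in the lesion or both-drug comparisons. For the lesion, Hbb was -0.00114 with normexp, -0.31 with slide as a fixed block, -0.061 with Ttr as a covariate and -0.083 with the brighter spot, Alas2 was 0.36 with slide as a fixed block and 0.057 with Ttr, Camp was -0.065 with slide as a fixed block, and S100a9 was 0.011 with slide as a random block and 0.00244 with Ttr. For both drugs, S100a9 was 0.041 with normexp and 0.20 with the brighter spot. Alas2 was -0.38 with slide fixed, -0.046 with slide random, -0.29 without the 5 arrays of high spot spread and -0.15 with Ttr, and S100a8 was -0.086 with slide fixed and -0.45 without the 5 arrays. Leaving out single arrays gave lesion changes of -0.063 to 0.24 for Hbb, -0.23 to 0.10 for Alas2 and -0.20 to 0.38 for S100a9, and both-drug changes of -1.15 to -0.43 for Hbb, -0.29 to 0.25 for Alas2 and -0.45 to 0.54 for S100a8. The cause of these turns was not tested.

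With group means removed r was -0.011 for Hbb and Alas2, -0.32 for Hbb and S100a8, -0.58 for Hbb and S100a9, -0.10 for Alas2 and Camp, -0.035 for Alas2 and S100a9, -0.20 for Camp and S100a8, and -0.33 for Camp and S100a9. Quantile normalization gave -0.037 for Hbb and S100a8, and leaving out both arrays farthest from the median gave -0.51 for Alas2 and Camp.

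The number of features called, the background of the counts, moved more. For L-DOPA, 84 passed, against 38 with normexp, 48 without the filter, 34 with the replicate block, 1 without the 5 arrays, 0 with the 2 groups alone, slide as a fixed block or Ttr, 2, 9 and 25 without replicates 1, 2 and 3 of lesioned saline, and 210, 8 and 10 without those of L-DOPA. For zonisamide, 93 passed, against 8 with normexp, 45 without the filter, 13 with the replicate block, 188 with slide as a random block, 1 without the 5 arrays, 10 with Ttr, 0 with the 2 groups alone or slide as a fixed block, 253, 6 and 5 without replicates 1, 2 and 3 of L-DOPA, and 71, 0 and 22 without those of the zonisamide group. For the lesion 13 passed without non-lesioned replicate 3 and 1 without replicate 2, and for both drugs 3 passed without zonisamide replicate 1 and 1 without lesioned saline replicate 3, in each case against 0; 1 passed for the lesion with the brighter spot. The replicate block pairs the arrays for zonisamide; it gave adjusted p = 0.263 for Hbb, 0.333 for Camp and 0.326 for S100a9 and changed no call of the 5.

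Replicate 3 of each saline group lay alone on its slide and drops out of a fit with slide fixed. The lesion could not be fitted without the 5 arrays, which hold all non-lesioned ones, and S100a8 was left out by the filter on all 12 arrays. S100a8 read -6.84 on zonisamide replicate 1, where the lowest signal marked well above background was -6.81, so its lowest values carry little order. Over genes above background on all 12 arrays the zonisamide median was -0.36 for 11 red cell genes (9 lower) and -0.34 for 8 neutrophil granule genes (6 lower).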
